A study of Mus musculus with 32 samples.

Results

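The data compared livers of 12-week-old male C57Bl/6 mice whose parents had received a high-fat or a low-fat diet. The 14 mice studied here were all the 12-week animals among 32 in the series, and 18 mice were 28 weeks old. Both parents received the high-fat diet (45% of kcal from fat) or standard low-fat chow (9% of kcal from fat), starting 6 weeks before mating and lasting through gestation and lactation. All offspring, those of low-fat parents included, were weaned onto a high-fat diet, so that the groups are LF/HF (7 mice) and HF/HF (7 mice), named by parental diet before the slash and offspring diet after it. Liver RNA of each mouse was hybridized to its own Affymetrix array, and levels are log2 of the deposited signal intensity. The parents received the diet, and which mice were littermates is not stated. P-values set each difference against the spread between these mice, and may be too small where mice share parents.

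The liver of a fat-fed mouse takes up fatty acids, esterifies them to triglycerides held in lipid droplets, and makes fatty acids and cholesterol of its own under control of the SREBP transcription factors. The same hepatocytes secrete acute-phase proteins in response to interleukins 1 and 6, break down amino acids, and follow a daily rhythm set by the circadian clock and by glucocorticoid hormone. Sinusoidal endothelial cells, Kupffer cells (the resident macrophages) and retinoid-storing stellate cells make up most of the rest of the tissue.

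A gene was counted as different when it met the criterion used in the study, an unadjusted P under 0.05 together with a fold change over 1.2. Of 21113 genes tested, 598 (2.83%) passed, 305 (1.44%) higher and 293 (1.39%) lower in HF/HF mice, with a median fold change of 1.28 and 12 genes past 2-fold. No gene passed an adjusted P of 0.05 (limma, Benjamini-Hochberg over all genes), where 979 genes had an unadjusted P under 0.05 and the smallest adjusted P was 0.283. If no gene differed, a share of 0.05 would have an unadjusted P under 0.05 on average. The 979 of 21113 genes are a smaller share, so their number shows no excess. Each gene below is called higher or lower where it met the unadjusted criterion (limma's moderated test), and the adjusted P of the genes named by rule that met it lay between 0.728 and 0.983. Values after a ± are standard errors of the log2 fold change, HF/HF minus LF/HF. The median over all genes was 0.00041. Counts of gene list members past the criterion are to be read beside 1.44% of all genes higher and 1.39% lower.

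Hepatocyte markers were at nearly the same level in both groups. Their mean lay from 12.00 to 12.12 in LF/HF mice (median 12.07) and from 12.02 to 12.13 in HF/HF mice (median 12.06). The arrays of 2 mice stood apart from the rest. LF/HF mouse 1 had high levels of striated muscle markers, with a mean of 26 muscle markers at 8.14 where the other LF/HF mice were at 2.43 to 2.71, and had the highest mean of 10 adipocyte markers (4.37). HF/HF mouse 3 had the highest HF/HF mean of the same muscle markers (3.89) and stood apart in cell cycle, stellate cell and Nrf2 target genes. The array names in the authors' table fell into 2 series, 1 with 3 LF/HF and 4 HF/HF mice and 1 with 4 LF/HF and 3 HF/HF mice. Because the tissue was measured in bulk, fewer cells of a type and less RNA per cell cannot be told apart.

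Only 12 genes (0.0568% of those tested) had levels that did not overlap between the groups, 8 lower and 4 higher in HF/HF mice, and 8 of the 12 passed the criterion. Random division of 7 against 7 mice separates a gene completely with a probability of 0.000583. The share of 12 genes is near that rate, so lack of overlap does not by itself set a gene apart. Edc3, which stimulates the removal of the mRNA cap, ranged from 5.82 to 5.98 in the LF/HF mice (median 5.95) and from 5.19 to 5.69 in the HF/HF mice (median 5.49). Its highest HF/HF level was under its lowest LF/HF level, and the difference was -0.45 ± 0.091 (adjusted P = 0.728). Il1r1, the signaling receptor for interleukin 1, lay from 6.74 to 7.57 in the LF/HF mice (median 6.98) and from 6.34 to 6.72 in the HF/HF mice (median 6.53), a difference of -0.51 ± 0.13 (adjusted P = 0.873). Pfkfb3 makes a regulatory fructose bisphosphate that activates glycolysis. It ranged from 3.56 to 4.25 in the LF/HF mice (median 3.78) and from 3.21 to 3.50 in the HF/HF mice (median 3.29). Its difference was -0.46 ± 0.11, and the HF/HF mice were close together.

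The other 9 of these 12 genes fall outside the rule by which genes are named and were picked after their values were seen. Nudt7, a peroxisomal hydrolase of coenzyme A, was lower (-0.38 ± 0.12), as were Nacc1 (-0.33 ± 0.10) and Mir184 (-0.36 ± 0.085), while Surf2 (-0.16 ± 0.069) did not pass. For Nudt7 the difference was -0.26, short of the fold threshold, without HF/HF mouse 3. The olfactory receptor pseudogene Olfr471-ps1 had the smallest P of all genes (-0.86 ± 0.14, adjusted P = 0.283), ranging from 2.19 to 3.19 in the LF/HF mice (median 2.72) and from 1.59 to 2.05 in the HF/HF mice (median 1.89). Its HF/HF levels all lay well under 3.11, the median level of all genes on the arrays. Ndufb6, a subunit of respiratory complex I, differed by 0.17 ± 0.061, 9530068E07Rik by 0.16 ± 0.06 and Pax1 by 0.25 ± 0.078, all short of the fold threshold. Gm1123 was higher (0.28 ± 0.078), at levels up to 1.94.

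Genes of lipid handling held several of the lowest P-values among the lower genes. Lpin1 encodes lipin 1, a phosphatidate phosphatase of triglyceride synthesis that also acts in the nucleus on fat oxidation genes. It ranged from 6.75 to 7.90 in the LF/HF mice (median 7.45) and from 6.07 to 6.89 in the HF/HF mice (median 6.59), and LF/HF mouse 2 (6.75) was the LF/HF animal that fell within the HF/HF range. The difference was -0.84 ± 0.17, a 1.79-fold lower level (adjusted P = 0.728). It was -0.82 and -0.85 within the array-name series and -0.76 without LF/HF mouse 1, whose level of 7.90 was the highest. Aacs, the cytosolic acetoacetyl-CoA synthetase that feeds ketone bodies into lipid synthesis, lay from 5.61 to 7.36 in the LF/HF mice (median 7.07) and from 4.81 to 5.95 in the HF/HF mice (median 5.40). LF/HF mice 1, 2 and 5 were at 5.97, 5.61 and 6.22, and the other 4 LF/HF mice were above 7. The difference was -1.24 ± 0.26 (adjusted P = 0.728). Abhd5, the co-activator of adipose triglyceride lipase, was from 6.47 to 6.72 in the LF/HF mice (median 6.66) and from 6.08 to 6.49 in the HF/HF mice (median 6.31), and differed by -0.35 ± 0.075. HF/HF mouse 3 (6.49) lay just above LF/HF mouse 5 (6.47), and the groups were otherwise apart.

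**Figure D1:**
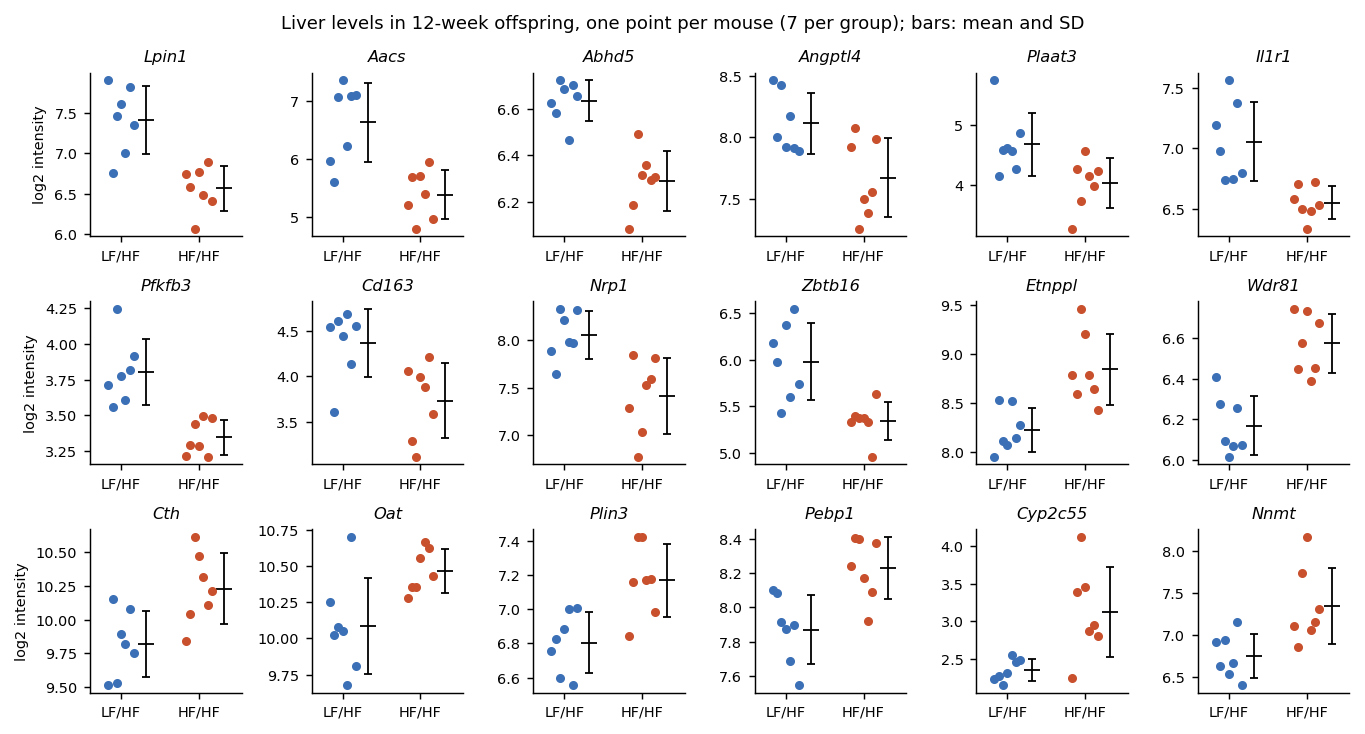
Log2 signal intensity of 18 genes in each 12-week mouse (vertical axes differ between panels), LF/HF mice in blue and HF/HF mice in red, with the mean and SD of each group in black. Il1r1 and Pfkfb3 do not overlap between the groups, while 4 of 7 HF/HF mice lie within the LF/HF range of Plaat3.

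Of 18 measured triglyceride synthesis genes and lipins, 0 were higher and 4 lower past the criterion, where 1.39% of all genes were lower. The median of the list was 0.048. The median was 0.11 in array-name series 1, -0.11 in series 2 and -0.013 without HF/HF mouse 3, so the list as a whole had no settled direction. Beside Lpin1, the lower genes were Plaat3, a phospholipase of fat tissue and liver that the files list as Pla2g16 (-0.66 ± 0.23), Agpat1, which acylates lysophosphatidate (-0.35 ± 0.14), and Dgat1, which adds the last acyl chain of triglycerides (-0.39 ± 0.16). Plaat3 lay from 4.14 to 5.76 in the LF/HF mice (median 4.58) and from 3.26 to 4.56 in the HF/HF mice (median 4.15). LF/HF mouse 1 was far above the others at 5.76, and without it the difference was -0.48. This mouse also had the highest adipocyte markers, whose part in the result was not tested. Lipid droplet proteins and lipases moved both ways, and 2 of 21 measured members were higher and 2 lower past the criterion. Mgll, which splits monoglycerides, was lower (-0.38 ± 0.11), as was Abhd5. Plin3, a coat protein of nascent droplets (0.36 ± 0.10), and Lipa, the lysosomal acid lipase (0.29 ± 0.10), were higher. Plin3 ranged from 6.55 to 7.01 in the LF/HF mice (median 6.83) and from 6.84 to 7.42 in the HF/HF mice (median 7.17).

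Fatty acid uptake and binding genes had 3 members that were lower past the criterion out of 19, where 1.39% of all genes were lower. Angptl4, a secreted inhibitor of lipoprotein lipase induced by fasting and glucocorticoids, was from 7.89 to 8.47 in the LF/HF mice (median 8.01) and from 7.26 to 8.08 in the HF/HF mice (median 7.56), a difference of -0.44 ± 0.14. Fabp5, a fatty acid binding protein, was close to 2 in 5 of the HF/HF mice and in 2 LF/HF mice and higher in the rest (-0.78 ± 0.33). Slc27a1, a fatty acid transporter, differed by -0.26 ± 0.12. In the list of fatty acid oxidation genes and PPARalpha targets, 2 of 36 measured members were higher and 0 lower past the criterion, and the list median lay near 0 (-0.01). The members past the criterion were the fatty acid omega-hydroxylases Cyp4a31 (0.75 ± 0.26) and Cyp4a10 (0.66 ± 0.25), closely related genes whose probes may share signal. Cyp4a10 lay from 7.72 to 9.55 in the LF/HF mice (median 8.45) and from 8.81 to 9.58 in the HF/HF mice (median 9.38). Ppara itself, the receptor that induces them, differed by -0.15 ± 0.13 and did not pass.

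In cholesterol synthesis, 0 of 20 measured members were higher and 2 lower past the criterion, and 14 of the 20 were lower on average.  Sqle, the epoxidase that commits squalene to sterols, ranged from 3.93 to 6.55 in the LF/HF mice (median 4.55) and from 3.08 to 4.29 in the HF/HF mice (median 4.11). LF/HF mice 4 and 7 were at 6.55 and 6.52, where the HF/HF maximum was 4.29. The median of the list was -0.19 in all 14 mice, 0.045 in array-name series 1 and -0.36 in series 2. With each mouse left out in turn it went from -0.29 without LF/HF mouse 2 to -0.05 without LF/HF mouse 7. In fatty acid synthesis, 0 of 21 measured members were higher and 2 lower past the criterion, namely Aacs and Elovl6, which lengthens palmitate (-0.54 ± 0.19). The median of that list was -0.14, with 0.10 in series 1 and -0.33 in series 2, and it went from -0.25 without LF/HF mouse 2 to -0.07 without LF/HF mouse 5. Both medians were thus above 0 in series 1 and below 0 in series 2.

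The genes of the SREBP factors did not pass. Srebf1 differed by 0.018 ± 0.17 and Srebf2 by -0.16 ± 0.13. Among 27 genes of SREBP control and cholesterol uptake, 1 was higher and 2 were lower past the criterion. Insig2, which retains SREBP in the endoplasmic reticulum, was higher (0.45 ± 0.19). Nfya, a subunit of the NF-Y factor that binds beside SREBP, was lower (-0.35 ± 0.11), and Stard4, a sterol carrier, was lower (-0.40 ± 0.18).

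**Figure D2:**
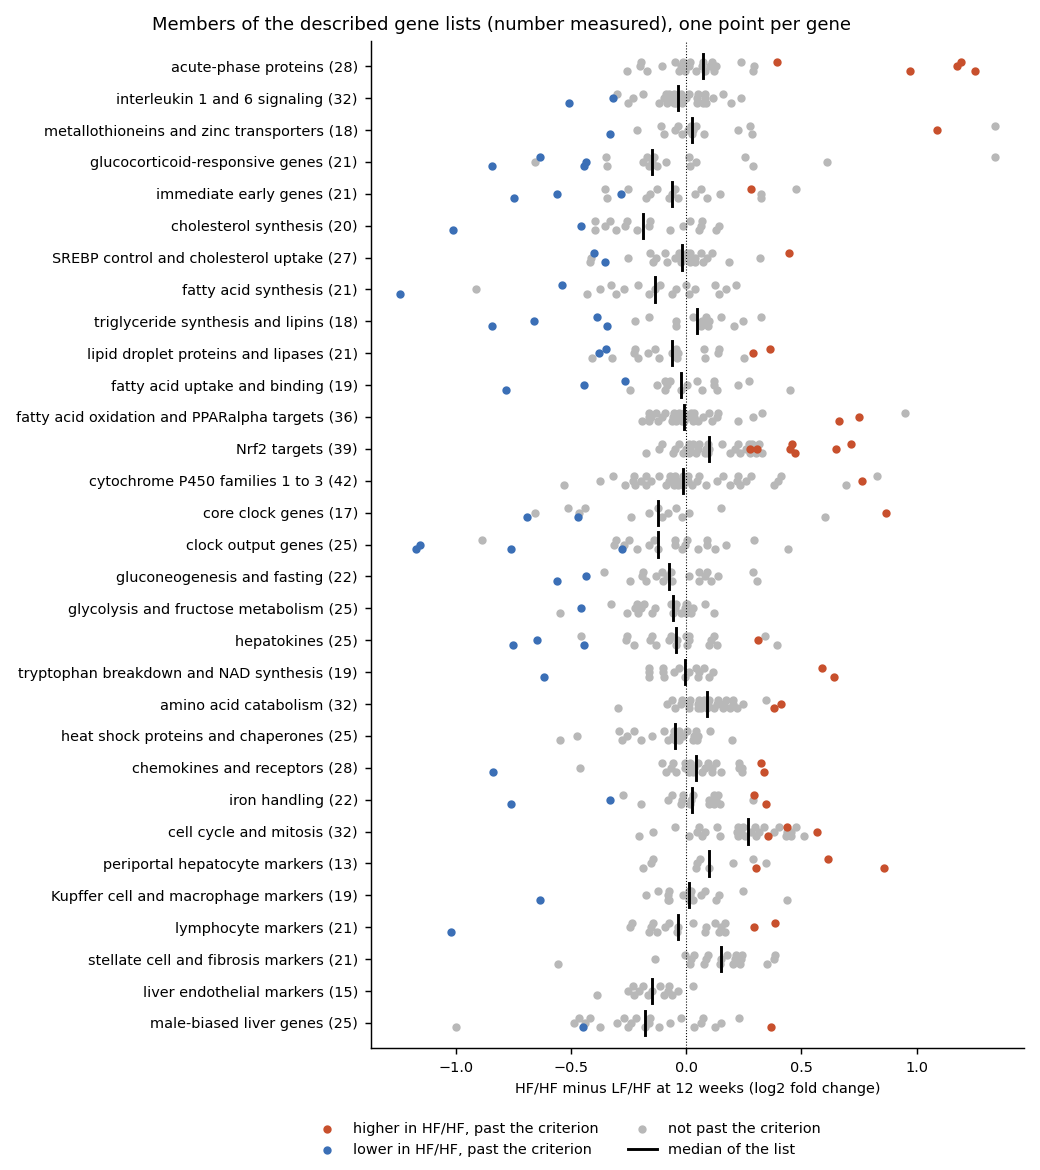
Log2 fold change of each measured member of the described gene lists, HF/HF minus LF/HF at 12 weeks, with the number of members in brackets. Red and blue points passed the criterion and black bars mark list medians, which lie between -0.19 and 0.27.

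Genes of the circadian clock differed in both directions. Of 17 measured core clock genes, 1 was higher and 2 lower past the criterion, where 1.44% and 1.39% of all genes were. On average 13 of the 17 were lower. The genes past the criterion were Npas2, a partner of BMAL1 in the activating limb (0.86 ± 0.37), and the repressors Ciart (-0.69 ± 0.28) and Bhlhe40 (-0.47 ± 0.22). Arntl, which encodes BMAL1, was from 3.49 to 5.50 in the LF/HF mice (median 4.33) and from 3.75 to 5.91 in the HF/HF mice (median 5.01), a difference of 0.60 ± 0.36 that did not pass. Nr1d1, the repressor of Arntl, differed by -0.24 ± 0.22. Among 25 clock output genes, 4 were lower past the criterion and none higher, where 1.39% of all genes were lower. Usp2, a rhythmic deubiquitinase, was from 3.95 to 7.09 in the LF/HF mice (median 5.84) and from 3.71 to 5.81 in the HF/HF mice (median 4.30), a difference of -1.16 ± 0.44. Rgs16, which limits G protein signaling in hepatocytes, was from 6.52 to 9.37 in the LF/HF mice (median 9.20) and from 5.86 to 8.48 in the HF/HF mice (median 7.84), a difference of -1.17 ± 0.45. Alas1, the first enzyme of heme synthesis, differed by -0.76 ± 0.31 and Tspan4 by -0.28 ± 0.12. Dbp, a clock-driven transcription factor, differed by -0.89 ± 0.48 and did not pass.

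A few mice were extreme in several of these genes. LF/HF mouse 2 had the lowest LF/HF level of Usp2 (3.95), Rgs16 (6.52) and Dbp (6.32), and the highest of Arntl (5.50) and Npas2 (3.35). HF/HF mice 4 and 6 had the highest HF/HF levels of Dbp and the lowest of Arntl, with Dbp at 8.74 and 8.68 and Arntl at 3.91 and 3.75. The time of day at which each liver was taken is not given in the sources used here, and its part in these differences was not tested.

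**Figure D3:**
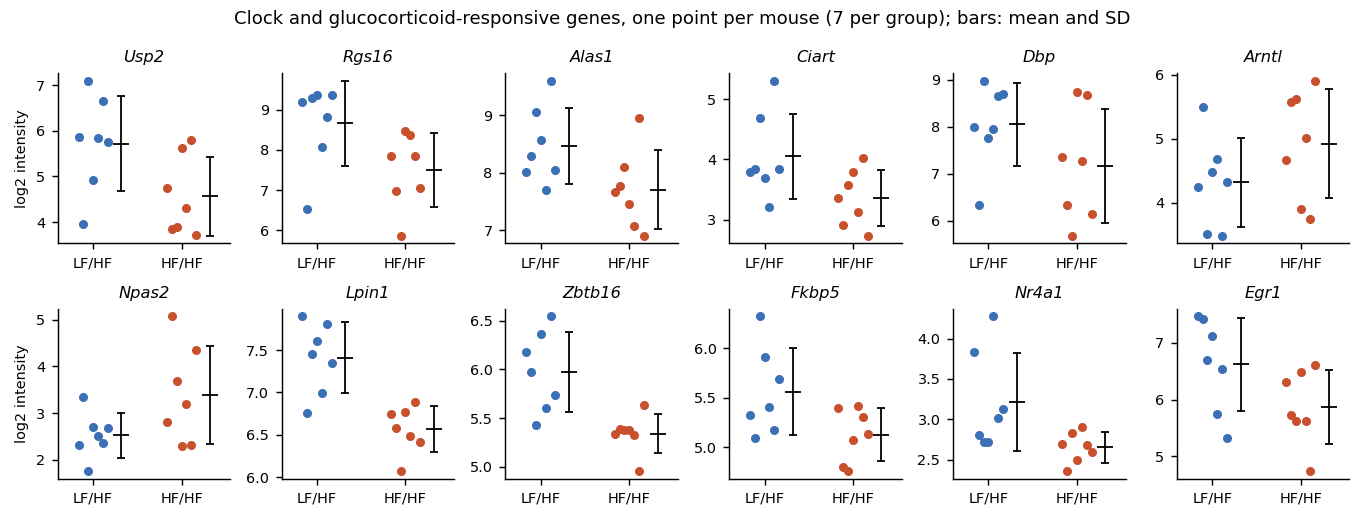
Log2 signal intensity of 12 clock and glucocorticoid-responsive genes in each 12-week mouse, LF/HF mice in blue and HF/HF mice in red, with group mean and SD in black. Dbp, Arntl and Npas2 overlap widely between the groups, and the HF/HF levels of Zbtb16 lie between 4.95 and 5.63.

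The clock acts on many of its targets through the E-box CACGTG, bound by CLOCK or NPAS2 with BMAL1, and through the D-box TTATGTAA, bound by DBP and its relatives. The stretches below are the 200 bases before the start of 4 members that passed the criterion, from RefSeq (GRCm38.p6), written 5′ to 3′ on the strand of the gene with motif matches on either strand in capitals. They show a gene with several matches, a gene with 1 and the 2 output genes with the largest differences.
Ciart: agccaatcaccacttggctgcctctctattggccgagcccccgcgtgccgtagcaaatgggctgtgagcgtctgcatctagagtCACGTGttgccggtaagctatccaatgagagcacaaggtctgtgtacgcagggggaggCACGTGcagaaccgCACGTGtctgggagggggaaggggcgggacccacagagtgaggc
Tspan4: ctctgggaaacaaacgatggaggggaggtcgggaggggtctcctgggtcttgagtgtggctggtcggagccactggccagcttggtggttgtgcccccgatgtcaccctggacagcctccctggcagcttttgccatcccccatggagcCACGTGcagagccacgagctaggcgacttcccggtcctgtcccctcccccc
Usp2: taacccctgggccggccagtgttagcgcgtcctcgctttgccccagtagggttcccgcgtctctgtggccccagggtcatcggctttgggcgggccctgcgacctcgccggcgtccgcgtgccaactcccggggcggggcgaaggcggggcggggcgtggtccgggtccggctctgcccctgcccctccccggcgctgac
Rgs16: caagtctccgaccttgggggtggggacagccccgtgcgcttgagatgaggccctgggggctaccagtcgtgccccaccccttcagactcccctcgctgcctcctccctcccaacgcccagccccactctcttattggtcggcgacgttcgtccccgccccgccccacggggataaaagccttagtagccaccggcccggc
These lie at chr3:95882229-95882428 (minus strand), chr7:141476180-141476379 (plus strand), chr9:44084720-44084919 (plus strand) and chr1:153740153-153740352 (plus strand), in that order, and Tspan4 is shown at the second of its listed starts. Ciart held 3 E-boxes, Tspan4 held 1, and Usp2 and Rgs16 held neither motif in these letters. Over windows from 250 bases before to 50 after each start, 4 of 20 windows of 13 core clock genes and 7 of 28 windows of 21 clock output genes held an E-box, where 7.15% of all 32851 RefSeq windows did. These windows belonged to 4 core clock genes and 5 clock output genes, as windows of the same gene can overlap and hold the same match. The D-box was found in 1 core clock window and in 0 clock output windows, against 0.938% of all windows. A match is a description of the sequence, and the windows do not reach distal sites.

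Of 21 measured genes known to respond to glucocorticoids, 4 were lower past the criterion and none higher, where 1.39% of all genes were lower. Lpin1 and Angptl4, described above, were among the 4. On average 14 members were lower and 7 higher, and the largest difference of any member was upward (1.34) and did not pass. Zbtb16, a zinc finger repressor, was from 5.43 to 6.55 in the LF/HF mice (median 5.98) and from 4.95 to 5.63 in the HF/HF mice (median 5.37), a difference of -0.64 ± 0.16. HF/HF mouse 7 lay above LF/HF mice 3 and 5, and the other HF/HF mice were below every LF/HF mouse. Fkbp5, a chaperone of the glucocorticoid receptor, differed by -0.43 ± 0.18. The median of the list was -0.15. LF/HF mouse 1 had the highest mean of the list (7.15), and the median was -0.10 without it. Among 21 immediate early genes, Nr4a1 (-0.56 ± 0.22), Fosl1 (-0.28 ± 0.10) and Egr1 (-0.75 ± 0.34) were lower and Ier3 (0.28 ± 0.13) was higher. LF/HF mice 1 and 5 held the highest Nr4a1 levels, 3.83 and 4.28, where the HF/HF maximum was 2.91. All HF/HF levels of Nr4a1 thus lay under the median level of all genes (3.11).

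Secreted liver hormones and glucose enzymes had a few lower members each. Among 25 hepatokines, Angptl4, Inhba and Angptl8 were lower and Fgl1 was higher past the criterion. Inhba, the activin A subunit, was from 4.89 to 5.74 in the LF/HF mice (median 5.28) and from 3.53 to 5.44 in the HF/HF mice (median 4.78), a difference of -0.75 ± 0.25. HF/HF mice 1, 3, 4 and 6 were below every LF/HF mouse, and the other 3 were within the LF/HF range. Angptl8, an insulin-induced secreted protein of lipoprotein metabolism, differed by -0.65 ± 0.27 and Fgl1, a fibrinogen-like secreted protein, by 0.31 ± 0.14. In glycolysis and fructose metabolism 19 of 25 genes were lower on average, but Pfkfb3 was the member that passed. Tkfc, the triokinase of fructose breakdown, differed by -0.26 ± 0.11, just short of the fold threshold. In gluconeogenesis and fasting, Slc37a4, the glucose 6-phosphate transporter, was lower (-0.43 ± 0.16), as was Nr4a1.

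Acute-phase proteins were higher in part. Past the criterion, 5 of 28 were higher and none lower, where 1.44% of all genes were higher. The median of the list was 0.071, and 0.04 without HF/HF mouse 2. Saa1 and Saa2, serum amyloid A genes so alike that probes may share their signal, differed by 1.25 ± 0.40 and by 1.17 ± 0.45. Saa1 lay from 4.95 to 6.34 in the LF/HF mice (median 5.99) and from 5.49 to 8.87 in the HF/HF mice (median 7.15). Of the HF/HF mice, numbers 1 and 2 were within the LF/HF range and the other 5 above it. Lcn2, the iron-siderophore binding lipocalin, ranged from 3.81 to 5.32 in the LF/HF mice (median 5.04) and from 4.21 to 7.79 in the HF/HF mice (median 5.87) (1.19 ± 0.42), and Orm2, an orosomucoid, from 4.81 to 5.88 in the LF/HF mice (median 5.56) and from 5.40 to 7.67 in the HF/HF mice (median 6.24) (0.97 ± 0.29). Apcs, serum amyloid P, was higher by 0.39 ± 0.13. Beside Il1r1, described above, Il1r2, the decoy receptor, differed by -0.32 ± 0.13. Both were lower, and they were the members of 32 interleukin 1 and 6 signaling genes that passed.

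Mt1, a zinc-binding metallothionein, was from 6.84 to 9.66 in the LF/HF mice (median 8.28) and from 8.24 to 10.77 in the HF/HF mice (median 9.06), a difference of 1.09 ± 0.42, and Mt2 differed by 1.34 ± 0.68 without passing. HF/HF mice 3, 4 and 6 were the highest in Mt1 (10.77, 10.42 and 9.84), and LF/HF mouse 1 was nearest to them at 9.66. Slc39a14, a zinc and iron importer, was lower (-0.33 ± 0.14). In iron handling, Tfrc, the transferrin receptor (0.35 ± 0.14), and Steap3, a ferrireductase (0.30 ± 0.12), were higher, while Slc39a14 and Alas1 were lower.

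Nrf2 is a transcription factor that induces antioxidant and conjugating enzymes. Of its 39 listed genes, 7 were higher past the criterion and none lower, where 1.44% of all genes were higher. The list includes Nfe2l2, which encodes Nrf2 and differed by 0.084 ± 0.11. Nqo1, the quinone reductase, was from 2.88 to 4.30 in the LF/HF mice (median 3.27) and from 3.45 to 5.27 in the HF/HF mice (median 3.92), a difference of 0.65 ± 0.25. Ugdh, which supplies UDP-glucuronate, was from 8.20 to 8.56 in the LF/HF mice (median 8.35) and from 8.43 to 9.90 in the HF/HF mice (median 8.66) (0.45 ± 0.17). The autophagy receptor Sqstm1 (0.28 ± 0.094) and the glutathione transferases Gstm2 (0.47 ± 0.18) and Gsta4 (0.46 ± 0.19) were also higher, as were Gsta2 and Gstm6. HF/HF mouse 3 was the highest of all 14 mice in Nqo1 (5.27), Ugdh (9.90) and Sqstm1 (9.96). Without it the differences were 0.44, 0.27 and 0.20, of which Sqstm1 no longer passed, and the median of the list went from 0.10 to 0.034. Gstm2 differed by 0.92 in array-name series 1 and by 0.026 in series 2.

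Nrf2 binds antioxidant elements of the core form TGACNNNGC. The 200 bases before the start are shown for 3 higher members, as above, with matches on either strand in capitals.
Ugdh: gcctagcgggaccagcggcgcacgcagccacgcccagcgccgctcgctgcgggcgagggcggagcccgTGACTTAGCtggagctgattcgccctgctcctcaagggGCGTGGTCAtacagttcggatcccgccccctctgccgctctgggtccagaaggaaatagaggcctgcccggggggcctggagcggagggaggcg
Nqo1: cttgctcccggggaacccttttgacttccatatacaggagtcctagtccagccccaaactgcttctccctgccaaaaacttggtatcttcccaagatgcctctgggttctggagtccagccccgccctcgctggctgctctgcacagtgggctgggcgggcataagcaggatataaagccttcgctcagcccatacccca
Gstm2: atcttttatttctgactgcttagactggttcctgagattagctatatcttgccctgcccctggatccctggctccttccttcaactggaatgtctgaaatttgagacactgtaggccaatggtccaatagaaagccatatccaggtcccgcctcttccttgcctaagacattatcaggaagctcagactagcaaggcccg
They lie at chr5:65435843-65436042 (minus strand), chr8:107403206-107403405 (minus strand) and chr3:107986421-107986620 (minus strand). Ugdh held 2 matches, and Nqo1 and Gstm2 held none in these letters. Over the longer windows, 13 of 44 windows of 34 matched Nrf2 targets held the element, against 12.4% of all windows. The 13 windows belonged to 12 genes.

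Most genes of amino acid breakdown had slightly higher means in HF/HF mice. Of 32 measured, 26 were higher on average, 2 past the criterion, and the list median was 0.092. The mean of the list lay from 9.03 to 9.19 in LF/HF mice (median 9.12) and from 9.14 to 9.38 in HF/HF mice (median 9.20), and all 7 HF/HF mice were above the LF/HF mean. Cth, which makes cysteine from cystathionine, was from 9.51 to 10.15 in the LF/HF mice (median 9.82) and from 9.84 to 10.62 in the HF/HF mice (median 10.21) (0.41 ± 0.12). Oat, the ornithine aminotransferase, was from 9.68 to 10.70 in the LF/HF mice (median 10.05) and from 10.28 to 10.67 in the HF/HF mice (median 10.43) (0.38 ± 0.12). In series 1 the list median was 0.18 and in series 2 0.033. Ppm1k, the mitochondrial phosphatase that activates branched-chain keto acid breakdown, was higher by 0.36 ± 0.10.

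Etnppl, which degrades phosphoethanolamine and is strongest around the portal vein, was from 7.94 to 8.52 in the LF/HF mice (median 8.14) and from 8.42 to 9.47 in the HF/HF mice (median 8.78), a difference of 0.62 ± 0.15. It was 0.51 without HF/HF mouse 3, which had the highest level. Among 13 periportal markers, Aldh1b1 (0.86 ± 0.38) and Gls2, the liver glutaminase (0.30 ± 0.14), were higher as well. Of the 13, 10 were higher and 3 lower on average, with a list median of 0.10. That median was 0.31 in series 1 and -0.039 in series 2, and fell to 0.033 without HF/HF mouse 4. In Aldh1b1, HF/HF mice 3 and 4 were at 8.43 and 7.68, the other HF/HF mice at 5.38 to 6.17. Genes of nicotinamide and tryptophan metabolism moved both ways. Nnmt, which methylates nicotinamide, was from 6.40 to 7.15 in the LF/HF mice (median 6.67) and from 6.86 to 8.17 in the HF/HF mice (median 7.15) (0.59 ± 0.17). Acmsd, which diverts tryptophan breakdown away from NAD, was higher (0.64 ± 0.27), and Nmrk1, a nicotinamide riboside kinase, was lower (-0.62 ± 0.20).

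The remaining genes with the smallest P-values belonged to no single list. Higher were Wdr81, an endosomal WD repeat protein (0.41 ± 0.086), Albfm1, a relative of albumin (0.46 ± 0.12), the membrane protein Mpzl1 (0.42 ± 0.11), the small GTPase Rhod (0.48 ± 0.13) and its relatives' regulators Arhgef19 (0.37 ± 0.10) and Arhgap18 (0.37 ± 0.10). Wdr81 lay from 6.01 to 6.41 in the LF/HF mice (median 6.09) and from 6.39 to 6.75 in the HF/HF mice (median 6.57), and the lowest HF/HF mouse was just under the highest LF/HF mouse. Pebp1, an inhibitor of Raf kinase, was higher by 0.36 ± 0.10. Cyp2c55, the cytochrome P450 of families 1 to 3 that passed among 42, was from 2.16 to 2.55 in the LF/HF mice (median 2.31) and from 2.26 to 4.12 in the HF/HF mice (median 2.95). All LF/HF mice lay under the median level of all genes, HF/HF mouse 1 lay among them at 2.26, and the other HF/HF mice were higher (0.76 ± 0.21). Tubb2a, a beta tubulin (1.01 ± 0.33), Krt23, a keratin (0.98 ± 0.33), and Tgfbr3l (0.88 ± 0.37) had large fold changes with wide spread.

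Lower were Rapgef4, a cAMP-activated exchange factor (-0.49 ± 0.10), Tedc2, a tubulin-associated protein (-0.70 ± 0.16), and Tgfbr3, the co-receptor betaglycan (-0.46 ± 0.11). Rapgef4 ranged from 7.92 to 8.43 in the LF/HF mice (median 8.29) and from 7.32 to 8.01 in the HF/HF mice (median 7.76), with LF/HF mouse 2 and HF/HF mouse 3 in the overlap. Nrp1, a co-receptor for vascular growth factor and semaphorins, was from 7.65 to 8.34 in the LF/HF mice (median 7.98) and from 6.77 to 7.84 in the HF/HF mice (median 7.53) (-0.64 ± 0.16). Serpina4-ps1, a pseudogene within a cluster of closely related serpins whose probes may share signal, was lower (-1.43 ± 0.34), the largest fold change (2.7-fold) among the genes past the criterion. It ranged from 9.01 to 10.48 in the LF/HF mice (median 9.39). HF/HF mouse 2 lay among them at 9.58, and the other HF/HF mice lay from 6.49 in mouse 3 to 8.32 in mouse 1. Rhox4g, 1 of a family of near-identical homeobox genes on the X chromosome, was lower (-1.08 ± 0.37).

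Markers of liver endothelium were lower on average in 14 of 15 cases, with a list median of -0.15, yet none passed the criterion. The mean of the list lay from 6.39 to 6.64 in LF/HF mice (median 6.50) and from 6.28 to 6.46 in HF/HF mice (median 6.35), and every HF/HF mouse was below the LF/HF mean. Kdr, the vascular growth factor receptor VEGFR2, was from 7.13 to 7.57 in the LF/HF mice (median 7.25) and from 6.90 to 7.14 in the HF/HF mice (median 7.05) (-0.25 ± 0.077, 1.19-fold), and Ptprb, a receptor phosphatase of vessels, differed by -0.20 ± 0.068. An unadjusted P under 0.05 was reached by 4 of the 15 markers, all lower, where 979 of 21113 genes reached it in either direction. The list median was -0.16 in series 1, -0.13 in series 2, and went from -0.19 without LF/HF mouse 2 to -0.09 without HF/HF mouse 3.

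Cd163, the hemoglobin-haptoglobin receptor of macrophages, was from 3.61 to 4.69 in the LF/HF mice (median 4.54) and from 3.11 to 4.21 in the HF/HF mice (median 3.88), a difference of -0.64 ± 0.19. It was the member of 19 Kupffer cell and macrophage markers that passed, and the median of the list was 0.014. Of the 14 mice, HF/HF mouse 3 was highest in the list mean (6.36), and the median was -0.10 without it. The mannose receptor Mrc1 differed by -0.17 ± 0.092. Of 21 lymphocyte markers, 10 were higher and 11 lower on average, with a list median of -0.035, so the list had no common direction. Past the criterion, Ighm, the heavy chain of immunoglobulin M, was lower (-1.02 ± 0.38). Cd3g (0.39 ± 0.15) and Cd3e (0.29 ± 0.12), CD3 chains of the T cell receptor complex, were higher at levels near or under the median of all genes. Ighm lay from 5.08 to 7.03 in the LF/HF mice (median 5.56) and from 3.80 to 5.96 in the HF/HF mice (median 4.47). The immunoglobulin light chain segment Iglj1 was also lower (-0.94 ± 0.40). Of 28 chemokines and receptors, Cxcl13, which attracts B cells, was lower (-0.84 ± 0.31), with LF/HF mice 1 and 6 at 5.34 and 5.82 and the other LF/HF mice at or under 4.11. Ccl5 (0.33 ± 0.11) and Ccl22 (0.34 ± 0.14), which attract T cells, were higher.

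HF/HF mouse 3 carried most of the difference in the cell cycle and stellate cell lists. Of 32 cell cycle genes, 29 were higher on average and 3 passed, namely Birc5 (0.44 ± 0.16), E2f1 (0.36 ± 0.14) and Plk1 (0.57 ± 0.24), with a list median of 0.27. The list mean was 4.09 in HF/HF mouse 3 and between 2.66 and 2.98 in the other 13 mice, under the median level of all genes (3.11). Without HF/HF mouse 3 the list median was 0.068. For stellate cell and fibrosis markers, none of 21 passed and the median was 0.15, against -0.0072 without HF/HF mouse 3. The 2 of smallest P were Lrat, which stores retinol (0.38 ± 0.21), and Col5a2, a collagen (0.24 ± 0.15). Genes with higher levels in male liver had a median of -0.18, and -0.083 without HF/HF mouse 3, whose list mean was 7.16 where the other HF/HF mice were at 7.91 to 8.40. In series 2 that median was 0.08. Of the 25 members, Mcm10 was lower (-0.45 ± 0.14) and Cyp4a12b higher (0.37 ± 0.17).

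**Figure D4:**
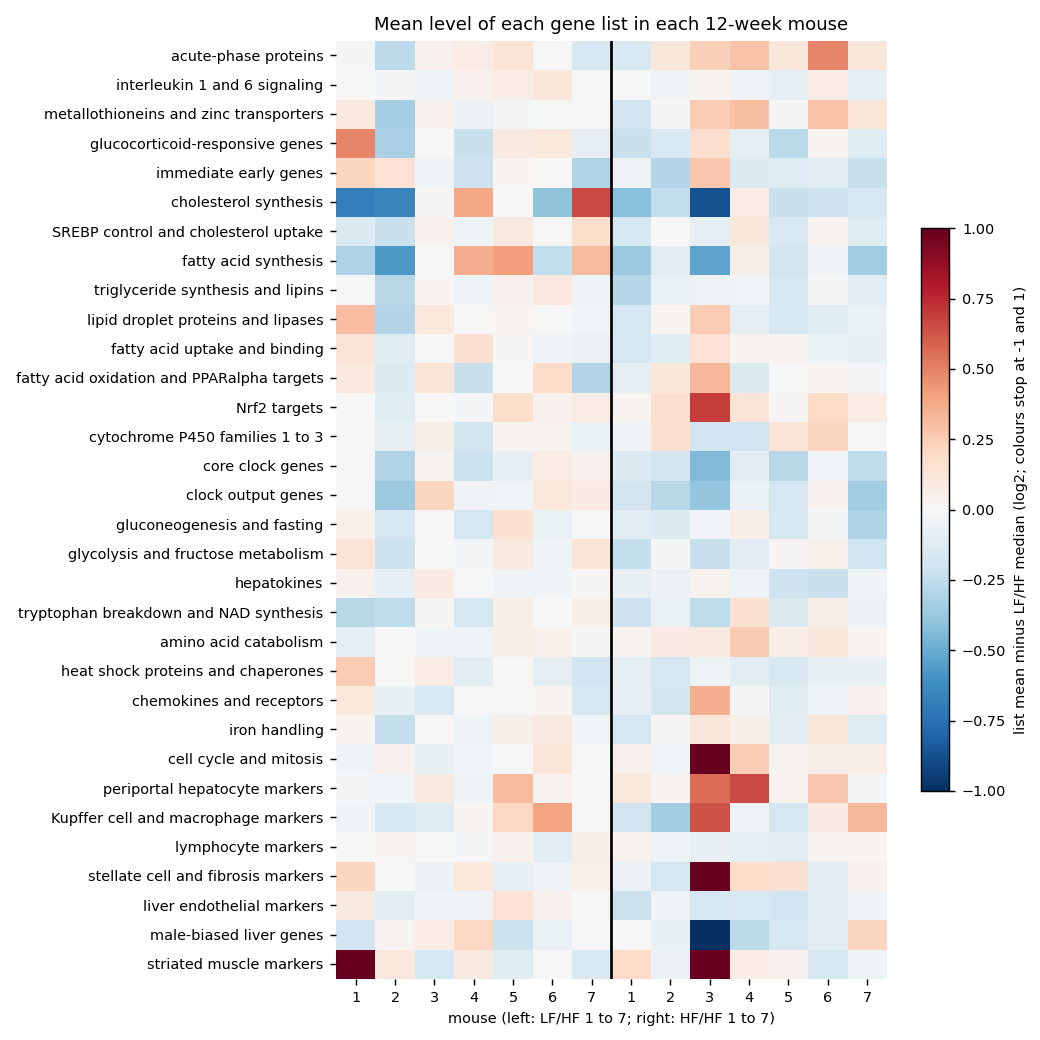
Mean log2 level of each described list in each mouse, minus the median of the LF/HF mice (blue lower, red higher). HF/HF mouse 3 stands out in cell cycle genes (4.09) and Nrf2 targets, LF/HF mouse 1 in striated muscle markers (8.14), and the endothelial markers are blue in most HF/HF mice.

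Many pathways showed no gene past the criterion. These included complement (30 genes), coagulation (30), bile acid synthesis and transport (30), interferon-stimulated genes (35), peroxide and superoxide clearing enzymes (21), proteasome subunits (30), DNA methyltransferases and TET enzymes (17) and the growth hormone and IGF1 axis (20). Of 52 oxidative phosphorylation subunits, 42 were higher on average and none passed, with a median of 0.037 over the whole list. Heat shock proteins and chaperones had a median of -0.05 (-0.15 in series 1 and 0.0069 in series 2), and none of 25 passed. Their 2 members of smallest P were Hspa1l (-0.23 ± 0.11) and the heat shock factor Hsf1 (-0.29 ± 0.15). Over all 61 lists, 85 of 1346 measured genes (6.32%) passed the criterion, beside 2.83% of all genes, and the lists were chosen with earlier results of these data known.

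Each mouse was left out in turn, which gave 14 fits. Of the 94 named genes past the criterion, 58 passed in all of them, among them every gene named for the smallest P. Over all genes, 598 passed the criterion with every mouse included and 209 passed in each of these fits. Each fit keeps all but 1 of the mice on which the genes were chosen. Genes chosen for the smallest P were therefore likely to pass again, and their passing is not independent evidence. Lipa did not pass without LF/HF mouse 1, Sqle without LF/HF mouse 4 and LF/HF mouse 7 and Gsta4 without HF/HF mouse 3 and HF/HF mouse 4. Sqstm1, E2f1 and Fosl1 did not pass without 1 of 3 mice each, the range of their log2 fold changes over the 14 fits being 0.20 to 0.32, 0.27 to 0.41 and -0.32 to -0.22. Genes that passed in 9 or 10 fits, with the same range, were Tgfbr3l (0.70 to 1.14), Fkbp5 (-0.51 to -0.31), Agpat1 (-0.41 to -0.27), Ciart (-0.83 to -0.48), Alas1 (-0.97 to -0.57), Tspan4 (-0.33 to -0.22), Angptl8 (-0.84 to -0.52), Acmsd (0.41 to 0.77), Steap3 (0.25 to 0.39), Tfrc (0.27 to 0.45), Plk1 (0.35 to 0.67) and Cd3e (0.23 to 0.34). Those that passed in 3 to 8 fits included Iglj1 (-1.24 to -0.77), Il1r2 (-0.38 to -0.23), Slc39a14 (-0.41 to -0.23), Egr1 (-0.96 to -0.56), Ier3 (0.21 to 0.33), Insig2 (0.36 to 0.54), Stard4 (-0.48 to -0.29), Dgat1 (-0.47 to -0.27), Fabp5 (-0.98 to -0.62), Slc27a1 (-0.33 to -0.19), Npas2 (0.58 to 1.05), Bhlhe40 (-0.63 to -0.38), Fgl1 (0.23 to 0.38), Ccl22 (0.26 to 0.40), Aldh1b1 (0.54 to 1.05), Gls2 (0.20 to 0.37) and Cyp4a12b (0.24 to 0.46). The clock genes Bhlhe40 and Npas2 and the growth factor-induced Egr1 and Ier3 were thus among the less stable calls.

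The genes that the study selected for further work on these same arrays included Cd163, Aacs, Lpin1, Plaat3, Saa1 and Il1r1, so their differences here are not independent evidence. In a two-sided exact permutation test of the 14 mice, P was 0.000583 for Il1r1, the smallest that 7 against 7 mice allow. It was 0.00175 for Lpin1, 0.0035 for Aacs, 0.0122 for Plaat3, 0.0128 for Cd163 and 0.0175 for Saa1 in the same exact test. Actb, the cytoskeletal actin used as a reference gene, differed by -0.031 ± 0.067. Relative to Actb the differences were between -1.21 for Aacs and 1.28 for Saa1.

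The 28-week mice, 9 in each group, shared few of these genes. Of the 598 genes past the criterion at 12 weeks, 18 also passed in the same direction at 28 weeks and 8 in the opposite direction. The 18 genes were 3.01% of the 12-week genes and 3.96% of the 454 genes that passed at 28 weeks. The 454 genes were 2.15% of those tested and include both directions, while the 18 share a direction. The 3.01% and the 2.15% therefore cannot be compared directly. With the 8 genes of opposite direction added to the 18, the share of the 12-week genes is above 3.01%. That share is the one like the 2.15%, and whether the overlap exceeds that of unrelated genes was not tested. Among the named genes, the 18 included Cd163 (-0.45 ± 0.19 at 28 weeks) and Acmsd (0.56 ± 0.25). At 28 weeks Lpin1 differed by 0.10 ± 0.17, Il1r1 by 0.26 ± 0.15, Rapgef4 by 0.15 ± 0.094 and Aacs by -0.44 ± 0.29. The difference between the ages was tested in 1 model over all 32 arrays, and no gene passed an adjusted P of 0.05 (limma, smallest adjusted P 0.749). An unadjusted P under 0.05 was reached by 1009 of 21113 genes, again a smaller share than 0.05. The difference between the ages, 12 minus 28 weeks, was -0.94 ± 0.26 for Lpin1, -0.64 ± 0.14 for Rapgef4 and -0.77 ± 0.22 for Il1r1. These genes were named for their 12-week difference, which is part of that test.

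**Figure D5:**
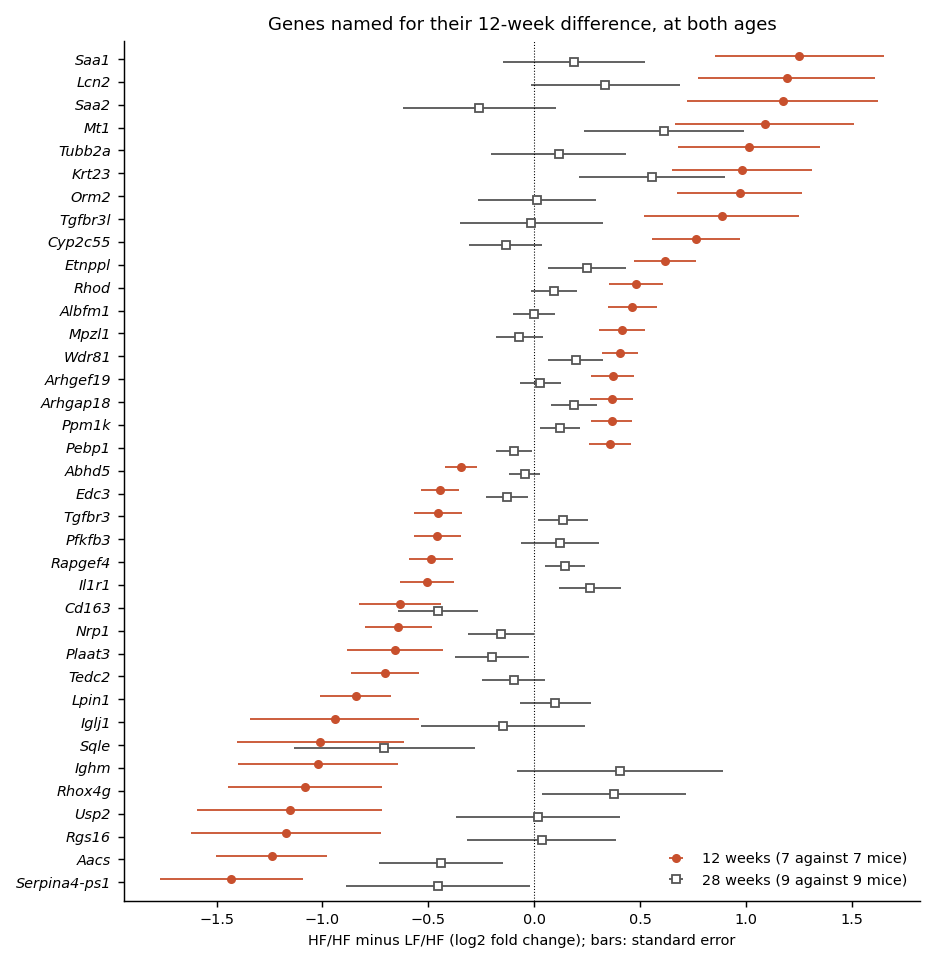
Log2 fold change (HF/HF minus LF/HF) with its standard error at 12 weeks (red circles) and 28 weeks (open squares) for genes named for small P, large fold or prior selection by the study. Cd163 lies on the same side at both ages, and Lpin1 and Il1r1 do not.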

How the data were processed

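Livers of 14 male offspring were profiled on Affymetrix Mouse Gene 1.1 ST arrays, 7 per group. The authors normalized the arrays with the robust multichip average method in the MADMAX pipeline and deposited linear signal intensities for 21115 probe sets, 1 per Entrez gene, for all 32 arrays. Log2 of the deposited intensity was taken. Symbols came from RefSeq through Entrez IDs for 20932 probe sets and from the platform table or the authors' file for 183. Where probe sets shared a symbol, the one with the highest mean was kept. This left out 2 probe sets, and 21113 genes were tested with limma 3.58.1 in R 4.3.3 (intensity trend, 14 arrays, no covariate). The authors' own fold change, P and q columns were not used. The methods name a paired test, but the pairs are not given, so an unpaired fit was used. Number of mice limits the precision, and the number of mice per litter is not given. Members and the 61 gene lists were chosen with earlier results of these data known. Named genes were the study's candidates with Actb, the 10 of smallest P and 8 of largest fold in each direction among genes past the criterion at or above the median level (predicted and unnamed genes left out), up to 5 members past the criterion of each described list (the 2 of smallest P where fewer than 2 passed), and 10 regulators named whatever their value. Candidates were tested with an exact permutation test over all 3432 divisions of the mice. Array-name series, normalization, array weights, intensity trend, replicate block, thresholds and each mouse left out were tried as alternatives. The fits were tested on simulated data. A few results are not reported here.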

Additional observations from a re-analysis of the deposited data

Results flagged for a closer look

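A mouse was picked out where its gap to the nearest other mouse of its group was more than 0.568 of the whole range of the 7 mice. Chance picks about 1 in 20 groups. Of 242 groups tested over named and non-overlapping genes, 14 were picked out, and of 64 groups tested over list means, 13 were. All values below are log2 levels, each beside that of the nearest other mouse of the group.

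HF/HF mouse 3 accounted for 12 of them. It was the highest in Sqstm1 9.96 against 9.45, Ugdh 9.90 against 8.82, Nqo1 5.27 against 4.05, Hspa1l 2.30 against 1.91, Nfe2l2 8.26 against 7.73, Nrf2 targets (list mean) 8.10 against 7.61, chemokines and receptors (list mean) 3.82 against 3.51, cell cycle and mitosis (list mean) 4.09 against 2.98, stellate cell and fibrosis markers (list mean) 5.83 against 5.01 and striated muscle markers (list mean) 3.89 against 2.80. It was the lowest in Nudt7 9.42 against 10.20 and male-biased liver genes (list mean) 7.16 against 7.91. LF/HF mouse 2 was the lowest in Lcn2 3.81 against 4.76, Iglj1 2.61 against 4.14, Bhlhe40 5.72 against 6.65, metallothioneins and zinc transporters (list mean) 5.21 against 5.48, triglyceride synthesis and lipins (list mean) 5.68 against 5.91 and iron handling (list mean) 7.85 against 8.04. The remaining ones were Lipa in HF/HF mouse 1 (9.79, nearest other mouse 10.04), Slc27a1 in HF/HF mouse 4 (4.40, nearest other mouse 4.16), Nqo1 in LF/HF mouse 5 (4.30, nearest other mouse 3.40), Cyp2c39 in LF/HF mouse 4 (2.17, nearest other mouse 3.02), Steap3 in HF/HF mouse 1 (5.73, nearest other mouse 6.28), amino acid catabolism (list mean) in HF/HF mouse 4 (9.38, nearest other mouse 9.24), periportal hepatocyte markers (list mean) in LF/HF mouse 5 (9.39, nearest other mouse 9.16), lymphocyte markers (list mean) in LF/HF mouse 6 (2.44, nearest other mouse 2.53) and striated muscle markers (list mean) in LF/HF mouse 1 (8.14, nearest other mouse 2.71).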

How the results depend on the processing

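The count of 598 genes past the criterion was 601 without an intensity trend, 617 with all arrays of both ages, 619 after cyclic loess, 609 after quantile normalization, 671 with array weights, 618 with the array-name series as a block and 598 over every probe set. It was 665 in array-name series 1 alone and 1010 in series 2 alone, of which 200 and 251 were among the 598. Among genes at or above the median level 362 passed. With a fold change over 1.5, 76 passed, and with P under 0.01 156 passed. Leaving out each mouse gave 573 to 789, the highest without LF/HF mouse 2, and 209 genes passed in every such fit. Without both LF/HF mouse 1 and HF/HF mouse 3, a setting added after the data were seen, 611 passed, 368 of them among the 598. No gene passed the adjusted P in any of these fits, where leaving out LF/HF mouse 7 gave the smallest adjusted P of 0.0626, nor for the difference between ages without the trend, with array weights or with the replicate block. Mice with the same replicate number did not deviate together (correlations -0.16 to 0.10, 1 of 7 LF/HF mice correlating best with its own number), and the fit with the replicate block called 611 genes, 508 of them among the 598. Of 94 named genes past the criterion, none turned direction and 24 passed under every alternative. Directions turned for Actb (0.0052 in series 1), Col5a2 (-0.021 in series 2) and Srebf1 (-0.0068 with array weights, -0.024 in series 2, and -0.10, -0.045, -0.06 and -0.039 without HF/HF mice 4 and 6 and LF/HF mice 2 and 4, within -0.10 to 0.094 over all mice left out), none of which had passed. The causes were not tested.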
